A study of Macaca fascicularis with 6 samples.

Results

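Cartilage organoids grown in culture from cynomolgus monkey iPS cells (pre-transplant cyiPS-Cart) were compared with native articular cartilage of the knee (cyAC) by single-cell RNA-seq. The cells were chosen by their sample, with no measured value used, and were 640 of the 1280 cells in the matrix of 4 conditions, 320 from each sample. Pre-transplant cyiPS-Cart came from 1 cyiPSC line with homozygous MHC haplotypes, which carries EGFP driven by the constitutive CAG promoter at the AAVS1 locus, and was both cultured in a chondrogenic medium and digested with Liberase in a medium that held 10 ng/mL each of BMP2, TGF-β1 and GDF5. cyAC was intact cartilage of wild-type male monkeys 3 to 4 years old and was digested with Liberase in RPMI-1640 without these factors. The number of animals behind cyAC is not given in the sources used here. In both samples live cells that took the hashtag stain were sorted. Values are also given for 3 samples that lie close to this pair. These are the undifferentiated cyiPSC of the same line, which were pooled with pre-transplant cyiPS-Cart in 1 library, the organoids of that line recovered 4 months after grafting into chondral defects (post-transplant cyiPS-Cart, a library of its own), and the fibrous tissue of ungrafted defects (cyFT), which was pooled with cyAC in 1 library. The monkeys of post-transplant cyiPS-Cart and cyFT were also 3 to 4 years old. The sample records give 4 months for the library of cyAC and cyFT too. Each condition is 1 sample, so no test was possible, and genotype, culture, digestion medium and library cannot be told apart from the condition.

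Hyaline cartilage is built by chondrocytes, which under the control of SOX9 lay down a network of type II, IX and XI collagen filled with the proteoglycan aggrecan. In the growing skeleton this matrix is a template that passes through proliferation and hypertrophy before bone replaces it, whereas articular cartilage persists, and its surface cells secrete lubricin, the product of *PRG4*. Small leucine-rich proteoglycans, which coat and space collagen fibrils, accumulate as articular cartilage matures.

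Pre-transplant cyiPS-Cart held 21293959 reads with a median of 58413.5 reads and 3765 genes per cell, and cyAC held 11825548 reads with a median of 29699 reads and 2284 genes per cell. The cells shared 0 barcodes. Levels are reads summed over the cells of a sample per 1000000 reads (CPM), and 95% intervals (exact Poisson for levels, exact conditional for ratios, Clopper-Pearson for shares of cells) cover counting error only. Because the organoid cells were sequenced more deeply, shares of cells with a read were also taken after each cell was thinned to 16101 reads, which left out 1 organoid cell and 32 cyAC cells. The authors' correction for diffused reads set low counts of highly expressed genes to 0, gene by gene and library by library. A 0 can therefore hide a low count, and the lowest non-zero count is given where this matters.

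Of 14020 genes listed, 3498 passed a filter that asked for 50 CPM or more in 1 of the samples and for reads in 25% or more of its cells or of the other sample's. A gene was called different when the log2 ratio of CPM + 1 reached 1 in size, that is 2-fold. By this rule 549 genes (15.7% of those past the filter) were higher in pre-transplant cyiPS-Cart and 396 (11.3%) were higher in cyAC, and 27% differed in either direction. Of the genes past the filter, 746 met both limits in the organoids alone and 390 in cyAC alone. A gene under 50 CPM in 1 sample could pass only by being higher in the other, so several list counts are also given over members at 50 CPM or more in both. Larger differences lay more often on the side of cyAC, with 81 genes at least 8-fold higher there and 43 at least 8-fold higher in the organoids. The split leans on the scaling. The median log2 ratio over all these genes was 0.28, 58.1% of the called genes were higher in the organoids, and this share became 48.6% with TMM factors, 48.7% when genes holding over 1% of the reads were left out of the totals and 36.1% when ratios were centred on their median. At the threshold itself, *RCC2* (95.9 CPM in the organoids, 47.4 in cyAC) lay just inside and *RANBP1* (175 and 87.0) just outside on the organoid side, while *OSBPL1A* (27.2 and 55.4) lay just inside and *CYTH1* (52.3 and 106) just outside on the cyAC side.

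**Figure D1:**
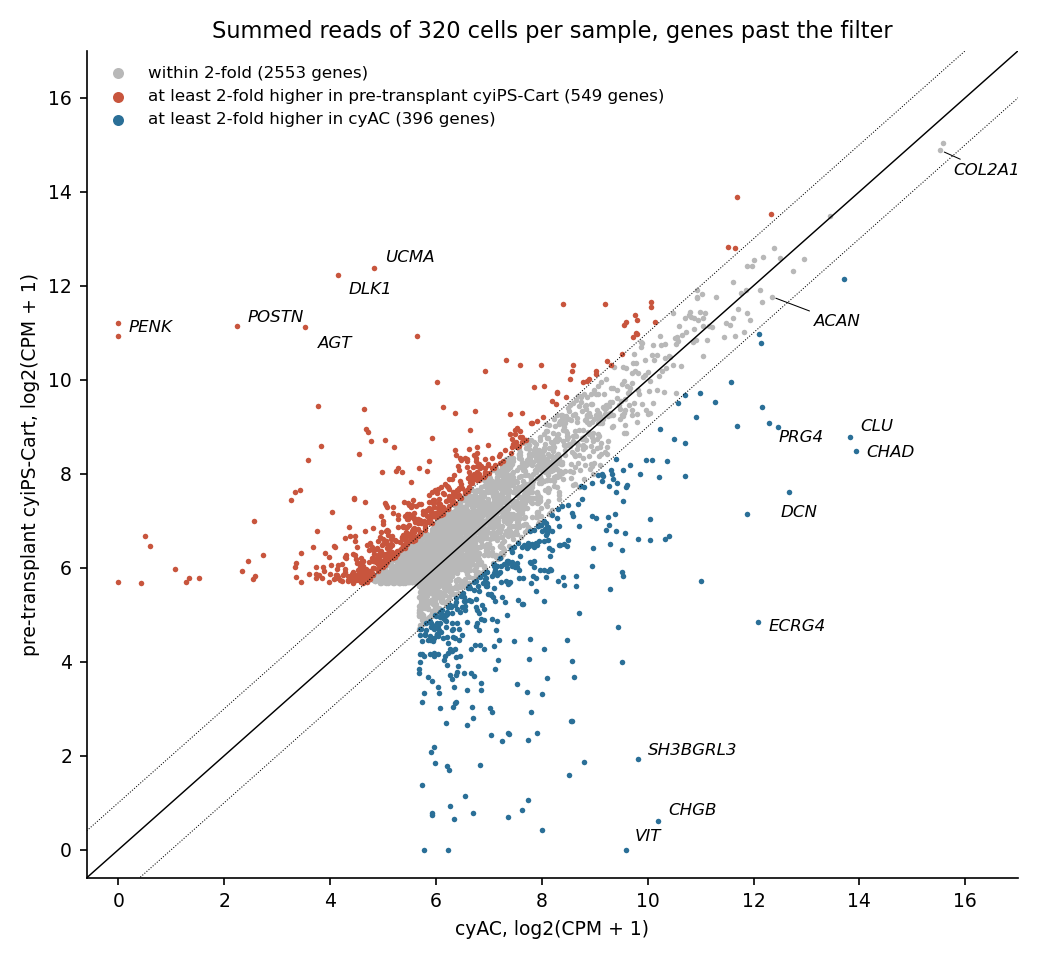
Level of each of the 3498 genes past the filter in cyAC (x axis) and pre-transplant cyiPS-Cart (y axis), both as log2(CPM + 1), with 1 point per gene, the solid line at equal levels and the dotted lines at 2-fold. The 549 genes higher in the organoids include *UCMA* and *DLK1* at the upper left, the 396 higher in cyAC include *VIT* and *ECRG4* at the lower right, and *COL2A1* and *ACAN* lie between the dotted lines.

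Both samples carried the markers of chondrocytes at like levels. *SOX9*, the master regulator of the chondrocyte, had 483 CPM in pre-transplant cyiPS-Cart and 395 in cyAC. *COL2A1*, the main collagen of hyaline cartilage, had 30156 and 47409.9 CPM, *ACAN*, which encodes aggrecan, 3479 and 5215, and *COL11A1*, a chain of type XI collagen, 7111 and 5379.6. All 6 chondrocyte markers, which also include *COL9A1* and *MATN3*, lay within 2-fold, and at least 3 of the 6 were found in 99.4% of organoid cells and 99.1% of cyAC cells. The transgene sequence (GFP-polyA) had 2354 CPM and reads in 100% of organoid cells and none in cyAC, as the labels of the samples require, and it is counted among the 549 genes.

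*UCMA*, a secreted Gla-rich protein of growth and juvenile cartilage, was found at a high level in most organoid cells. It had 5324 CPM (5294 to 5356) in pre-transplant cyiPS-Cart and 27.6 CPM (24.7 to 30.7) in cyAC, a 193-fold difference (173 to 216) and a log2 ratio of 7.54. Across organoid cells the quartiles were 1667, 4734 and 7881 CPM, and 88.1% of the cells (84.1 to 91.5) held reads, the lowest non-zero count being 15. In cyAC 8.75% of the cells (5.89 to 12.4) held reads, and after thinning the shares were 88.1% and 7.99%. At a minimum of 10 reads the cyAC share was 3.44% and the organoid share was unchanged, its lowest count being above that. In the same library as cyAC, 1.56% of all cyFT cells (0.509 to 3.61) held *UCMA* reads at a median of 27499.5 reads per cell, as did 2 of the 17 cyFT cells that held at least 3 immune genes (median of 46169 reads), at no more than 51.9 CPM. These 17 cells were chosen after their values were seen and may include doublets. Above that level lay 22 cyAC cells (6.88%, 4.36 to 10.2), so a small group of cyAC cells held more *UCMA* than these. Of the *UCMA* reads of cyAC, 17.5% came from 1 cell. After transplantation the level was 55.2 CPM.

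*PRG4*, the gene of lubricin, pointed the other way. Its level was 538 CPM (528 to 548) in pre-transplant cyiPS-Cart and 4986 CPM (4946 to 5027) in cyAC, which was 9.27-fold higher (9.09 to 9.46), a log2 ratio of -3.21. In the organoids 16.6% of the cells (12.7 to 21.1) held reads, each with at least 22, and in cyAC 97.2% (94.7 to 98.7), or 16.6% and 92.0% after thinning. The cyAC share is not taken as a count of expressing cells. It fell to 58.1% at a minimum of 10 reads, while the organoid share was unchanged. Of the 17 cyFT cells with immune genes, which come from the same library as cyAC, 16 held *PRG4* reads too. Their median was 166 CPM and their highest level 2206 CPM, and whether these cells express *PRG4* was not tested. In cyAC the quartiles were 136, 399 and 4217 CPM, and 102 of 320 cells (31.9%, 26.8 to 37.3) lay above the highest of these immune-marked cells. The same level was passed by 29 of 320 organoid cells (9.06%, 6.15 to 12.8). High *PRG4* was found in a minority of cells in each sample, which was larger in cyAC. Among cells with *COL2A1* and without *COL1A1* reads the log2 ratio was -2.61.

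Most organoid cells with *PRG4* reads also held *UCMA*, which 88.1% of all organoid cells held. Of 320 organoid cells, 52 held reads of both genes, 230 of *UCMA* alone, 1 of *PRG4* alone and 37 of neither.

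**Figure D2:**
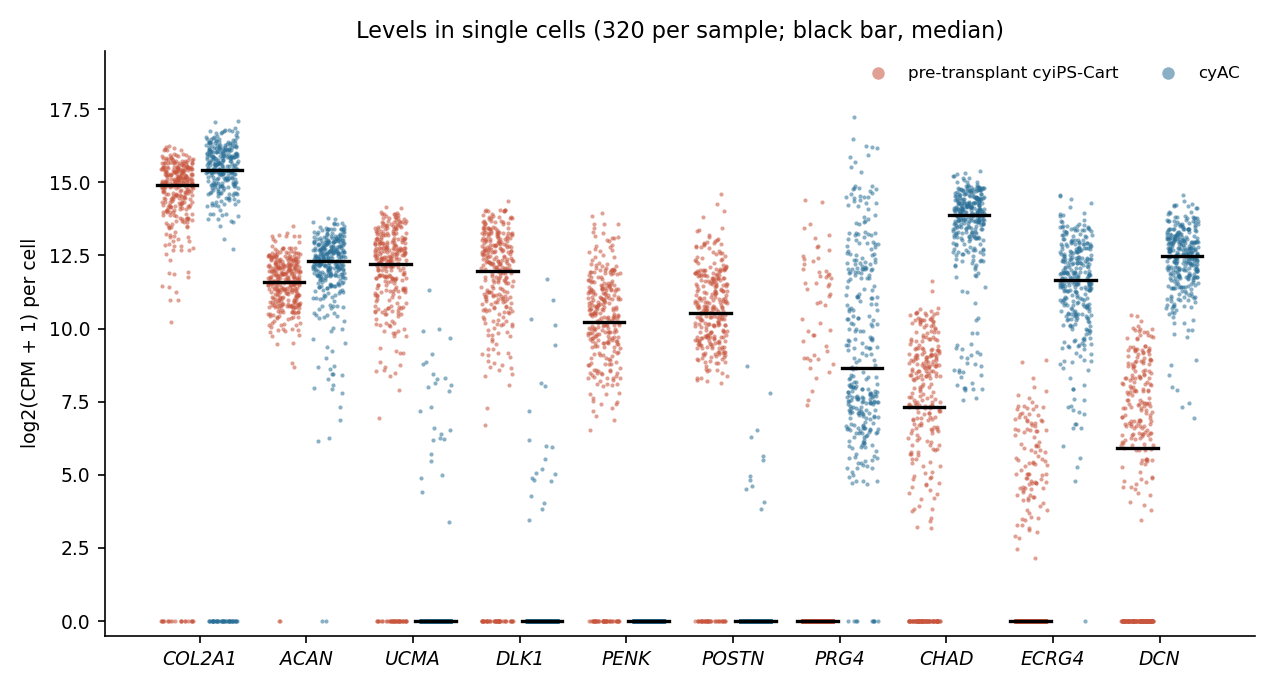
Level of 10 genes in each cell of pre-transplant cyiPS-Cart (red) and cyAC (blue) as log2(CPM + 1), with 1 point per cell, 320 cells per sample and a black bar at the median. *COL2A1* and *ACAN* overlap between the samples, *UCMA*, *DLK1*, *PENK* and *POSTN* are at 0 in most cyAC cells, and *CHAD*, *ECRG4* and *DCN* have medians of 15050.2, 3218 and 5770.3 CPM in cyAC against 157, 0 and 59.3 CPM in the organoids.

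The genes with the largest ratios on the organoid side were nearly absent from cyAC. *PENK*, the precursor of the enkephalin opioid peptides, had 1954 CPM and reads in 86.9% of organoid cells, and was listed at 0 in cyAC, where the correction can hide a low count, so no fold is given. *POSTN*, the matricellular protein periostin, had 2248 and 3.72 CPM, and 56.8% of its few cyAC reads came from 1 cell, without which the level was 1.61 CPM. *DLK1*, an imprinted NOTCH-family ligand of fetal tissue, had 4801 CPM in the organoids and 16.7 in cyAC. *AGT*, which encodes angiotensinogen, had 2226 and 10.6 CPM. After transplantation the levels were 4699 CPM for *DLK1*, 355 for *POSTN*, 240.5 for *PENK*, 190.0 for *AGT* and 55.2 for *UCMA*.

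The other 10 leading organoid genes had varied roles. *MFAP4*, a microfibril protein, had 1937 and 49.0 CPM, *DPT*, the collagen-binding dermatopontin, 668 and 23.8, and *MATN4*, a matrilin, 313 and 10.9. *IGFBP3*, which binds insulin-like growth factors, had 691 and 12.7 CPM, and *PAPPA2*, a protease that cleaves such binding proteins, had 87.4 and 0.507. Most cyAC cells held no read of these genes, and shares of cells with reads ran from 0.625% for *PAPPA2* to 30.9% for *MFAP4*. *AMOT*, a regulator of the Hippo pathway, was found in 99.4% of organoid cells and 25.6% of cyAC cells, at 386 and 13.2 CPM, and at 440.1 CPM in cyiPSC. *SLPI*, a secreted protease inhibitor, *LPAR5*, a lysophosphatidic acid receptor, *GRIN2A*, an NMDA receptor subunit, and *CAP2*, an actin-binding protein, were lower, between 50.3 and 101 CPM in the organoids and between 0 and 1.10 CPM in cyAC. Their ratios moved most with the constant added to the CPM, *GRIN2A* from 2.61 to 8.99 on the log2 scale over the alternatives tried. For 6 of the 15 leading organoid genes over 30% of the cyAC reads came from 1 cell, and without that cell their cyAC levels lay between 0 and 8.40 CPM.

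On the side of cyAC the leading genes were low or absent in the organoids. *ECRG4*, the precursor of the secreted peptide augurin, had 27.6 CPM in the organoids and 4341 in cyAC, 157-fold higher (145 to 171). *VIT*, the matrix protein vitrin, was listed at 0 in the organoids, with no fold given for the same reason, and had 769 CPM and reads in 90.3% of the cells in cyAC. In the 17 immune-marked cyFT cells of the cyAC library, *VIT* reads were in 6 and *ECRG4* reads in 14, with medians of 0 and 92.1 CPM against 557 and 3218 CPM over cyAC cells. The medians over cyAC cells thus stood above those of the immune-marked cells, and 44 cyAC cells for *VIT* and 101 for *ECRG4* lay above the highest of them. *CTHRC1*, a secreted collagen-repeat protein, had 0.329 and 254 CPM. *SFRP5*, a secreted WNT antagonist, had 2.63 and 444 CPM, and *FGFBP2*, a fibroblast growth factor binding protein, 2.02 and 367. *ESR1*, the estrogen receptor alpha, had 0.611 and 163 CPM, with reads in 1.56% of organoid cells and 60.3% of cyAC cells (0.627% and 52.8% after thinning). *ECRG4* aside, these genes were nearly absent from the organoids. *IGFBP6* had 5.68 and 374 CPM and thus lay on the other side from *IGFBP3*. *VCAM1* and *IGSF11*, both cell adhesion molecules, had 377 and 196 CPM in cyAC and 5.64 and 0.798 in the organoids, and *APOD*, a lipid-binding apolipoprotein, had 214 and 1.08.

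Several of these genes need a reservation. *CHGB*, a granin of secretory vesicles, had 0.517 and 1173 CPM, and 28.5% of its cyAC reads came from 1 cell, without which the level was 846 CPM. Its log2 ratio was -9.60 over all cells and -4.75 among cells with *COL2A1* and without *COL1A1* reads. Of the *MEDAG* reads of cyAC (104 CPM against 0.704), 19.1% came from 1 cell. On the low side, over 30% of the organoid reads came from 1 cell for 7 of these 15 genes, and without it their levels lay between 0.0941 and 1.70 CPM. *SH3BGRL3*, a small thioredoxin-like protein, was low in every sample of the EGFP line, with 2.82 CPM in pre-transplant cyiPS-Cart, 4.49 in post-transplant cyiPS-Cart and 4.06 in cyiPSC against 899 in cyAC and 863 in cyFT, where all 17 immune-marked cells held it. The line, the animals and the libraries differ together between these samples, and which of them the level follows was not tested. *RAMP3*, a partner of peptide hormone receptors, and *UGGT2*, an endoplasmic reticulum glucosyltransferase, had no read in the organoids and 73.8 and 53.6 CPM in cyAC.

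**Figure D3:**
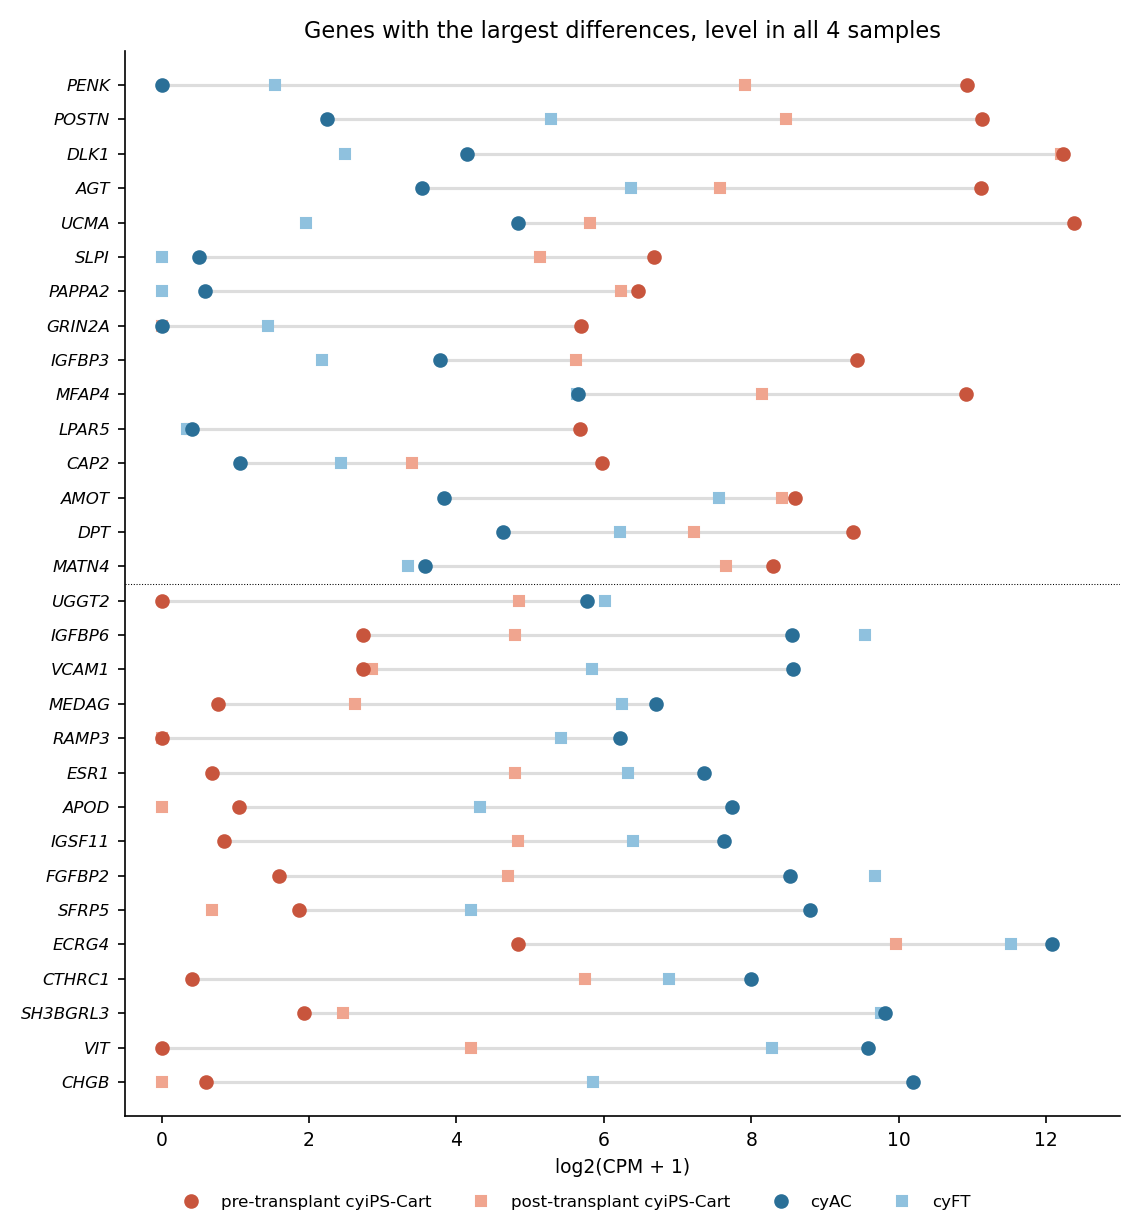
Levels as log2(CPM + 1) of the 15 genes with the largest ratio toward pre-transplant cyiPS-Cart (above the dotted line) and the 15 with the largest ratio toward cyAC (below it), with circles for these samples, joined by a grey line, and squares for post-transplant cyiPS-Cart and cyFT. *DLK1* has 4801 CPM before and 4699 CPM after transplantation, and *SH3BGRL3* is low in both organoid samples and high in cyAC and cyFT.

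The collagen network of hyaline cartilage was present in both samples. Of 5 listed cartilage collagen genes, all past the filter, none was higher in the organoids, *COL9A2* (1752 and 4501 CPM) and *COL11A2* (2012 and 4380.1 CPM) were higher in cyAC, and *COL2A1*, *COL9A1* and *COL11A1* were within 2-fold. Of the aggregating proteoglycans and their partners, 4 of 6 past the filter were within 2-fold, a share no higher than that over all genes. Of 10 listed genes these 6 passed, and *ACAN*, the link proteins *HAPLN1* and *HAPLN3* and the hyaluronan receptor *CD44* were within 2-fold. *VCAN*, the versican of embryonic and soft connective matrix, was higher in the organoids at 308 against 57.1 CPM, and *HAS2*, the main hyaluronan synthase, was higher in cyAC at 281 against 84.2 CPM.

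Fibrous and pericellular collagens differed in both directions. Of 13 listed genes 9 passed the filter, with 4 higher in the organoids, 2 higher in cyAC and 3 (*COL1A2*, *COL6A3* and *COL4A2*) within 2-fold. *COL5A2*, a chain of the type V collagen that starts collagen fibrils, had 3143 and 337 CPM, and *COL5A1* had 1036 and 369. *COL3A1*, the type III collagen of soft tissue, had 11792 and 5177 CPM and fell within 2-fold when ratios were centred on their median. *COL12A1*, a fibril-associated collagen, had 307 and 108 CPM. *COL14A1*, another fibril-associated collagen, went the other way at 58.7 and 726 CPM, as did *COL16A1* at 837 and 2019.

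Type I collagen, the fibril of bone and fibrous tissue, was found with its *COL1A1* chain in a minority of cells of each sample. *COL1A1* had 7016 CPM in the organoids and 1196 in cyAC but missed the filter, with reads in 24.1% and 5.94% of the cells and lowest non-zero counts of 277 and 76. *COL1A2*, the other type I chain, was within 2-fold at 3861 and 1962 CPM and held by 96.6% and 11.6% of the cells, but its lowest non-zero counts of 1 and 92 differ, so these shares are not compared. Of 320 organoid cells, 242 held *COL2A1* without *COL1A1*, 58 held both and 19 held *COL1A1* alone. In cyAC these numbers were 276, 3 and 16. The lowest non-zero counts of *COL1A1*, 277 and 76, differ as well. Cells without its reads were thus cut at unlike counts, and these numbers are not compared. When only cells with *COL2A1* and without *COL1A1* reads were summed, 518 genes were higher in the organoids and 409 in cyAC, of which 473 and 364 were also called over all cells. This choice of cells widened the log2 ratio of *IGFBP4* from 3.91 to 6.54, *IGFBP5* from 2.74 to 5.28, *CHI3L1* from 1.62 to 2.90, *VCAM1* from -5.83 to -7.28 and *BHLHE40* from -2.35 to -2.99. It narrowed that of *CLU* from -5.04 to -4.37, *TGFBR3* from -2.23 to -1.48 and *SLPI* from 6.17 to 5.58.

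All 11 small leucine-rich proteoglycans were listed and 10 passed the filter, with 6 higher in cyAC, 1 higher in the organoids and 3 (*FMOD*, *LUM* and *OGN*) within 2-fold, and a median log2 ratio of -1.80 against 0.28 over all genes past the filter. Of the 8 at 50 CPM or more in both samples, 5 were higher in cyAC and none in the organoids. *CHAD*, the cell-binding chondroadherin of mature cartilage, had 356 CPM in the organoids and 15717 in cyAC, 44.1-fold higher (43.1 to 45.1). *DCN*, which encodes decorin, had 193 and 6515 CPM, 33.7-fold higher in cyAC (32.7 to 34.8), and 6282 CPM in post-transplant cyiPS-Cart. The immune-marked cyFT cells of the cyAC library had median levels of 433 CPM for *CHAD* and 169 CPM for *DCN*, which 304 and 318 of 320 cyAC cells passed, and their highest levels were passed by 121 (37.8%) and 178 (55.6%) cyAC cells and by no organoid cell. *BGN*, *PRELP*, *OMD* and *ASPN* were higher in cyAC by 2.96-, 4.18-, 4.18- and 4.90-fold. *EPYC*, the epiphycan of growth cartilage, was the exception at 53.9 CPM in the organoids and 1.86 in cyAC, from 32.2% and 1.25% of the cells, and it missed the filter in thinned cells and by mean CPM per cell.

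**Figure D4:**
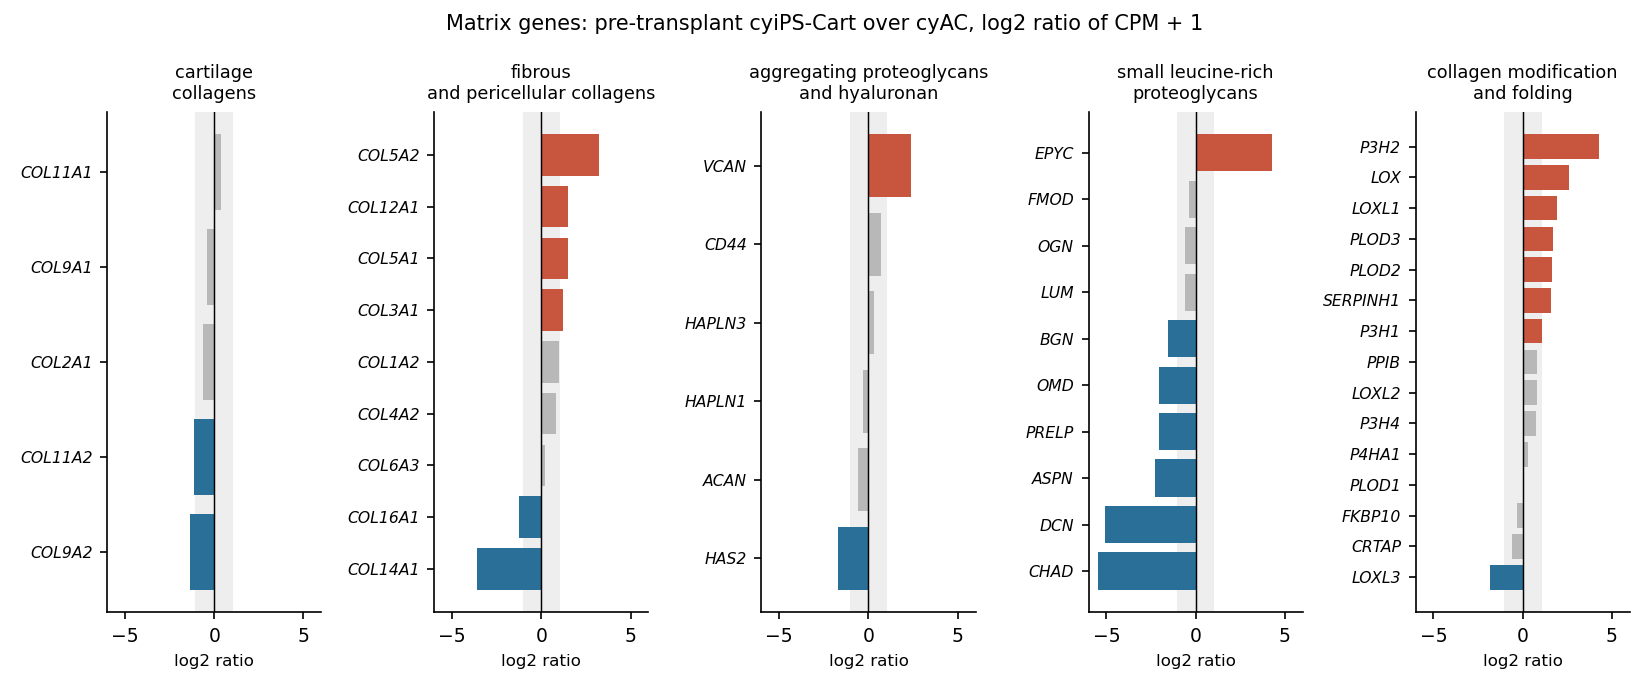
Log2 ratio of CPM + 1 (x axis, pre-transplant cyiPS-Cart over cyAC) of the genes past the filter in 5 matrix families, with bars in red or blue when they pass 2-fold toward the organoids or cyAC and the grey band marking less than 2-fold. *CHAD* and *DCN* reach -5.46 and -5.07, and *P3H2* and *EPYC* reach 4.28 and 4.26.

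Of 16 listed genes that assemble and cross-link collagen 15 passed the filter, of which 7 were higher in the organoids, 1 in cyAC and 7 were within 2-fold (4, 1 and 6 of the 11 at 50 CPM or more in both). *P3H2*, a prolyl 3-hydroxylase, had 497 and 24.6 CPM, *PLOD2*, the lysyl hydroxylase of collagen telopeptides, 2661 and 867, and *LOX*, the cross-linking lysyl oxidase, 649 and 105. *SERPINH1*, the collagen chaperone HSP47, was found in all organoid cells and 98.1% of cyAC cells at 3227 and 1074 CPM. *P3H1* fell within 2-fold when genes over 1% of reads were left out of the totals and when ratios were centred. *LOXL3* was higher in cyAC at 779.6 against 215 CPM. Of 18 listed genes of chondroitin sulfate synthesis 13 passed the filter and 10 of these were within 2-fold. *CHPF* and *CSGALNACT1*, which extend and start the sugar chain, were higher in cyAC by 3.58- and 5.66-fold, and *B4GALT7*, which builds its linker, was higher in the organoids at 53.1 against 22.2 CPM, but not when ratios were centred or 10 CPM was added.

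Of 13 listed superficial zone and other articular genes 10 passed the filter, and *PRG4*, *CILP*, *CILP2*, *CLU*, *VIT* and *ABI3BP* were higher in cyAC, *SEMA3A* was higher in the organoids, and *ERG*, *THBS4* and *AUTS2* were within 2-fold (*ABI3BP* also, among cells with *COL2A1* and without *COL1A1*). Of the 6 at 50 CPM or more in both samples, *PRG4*, *CLU* and *ABI3BP* were higher in cyAC and 3 were within 2-fold. *CLU*, the secreted chaperone clusterin, had 438 CPM in the organoids and 14457 in cyAC, 33.0-fold higher (32.3 to 33.7). *CILP*, a protein of the middle zone of articular cartilage, had 25.7 and 691 CPM and was found in 15.3% and 35.9% of the cells (11.3% and 37.8% after thinning). *ERG*, a transcription factor of the joint surface, had 75.6 and 125 CPM, and *CREB5*, an activator of *PRG4*, missed the filter at 8.55 and 34.8 CPM.

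Of 14 listed matrix and secreted genes of adult cartilage 10 passed the filter, with 6 higher in cyAC, 2 higher in the organoids (*CHRDL2* and *CHI3L1*) and 2 within 2-fold. Of these genes, 6 had 50 CPM or more in both samples. Among them *MGP* and *SOD3* were higher in cyAC, *CHRDL2* and *CHI3L1* in the organoids and 2 were within 2-fold. The other 4 higher in cyAC passed through cyAC alone. *MGP*, the matrix Gla protein that inhibits calcification, had 688 and 4594 CPM, and *SOD3*, the extracellular superoxide dismutase, 51.8 and 2045. *CP*, the ferroxidase ceruloplasmin, had 3.94 and 150.1 CPM. *CHI3L1*, a secreted glycoprotein of cultured and injured cartilage, was higher in the organoids at 1168 against 380.4 CPM, whereas its paralog *CHI3L2* was higher in cyAC at 353 against 21.0 CPM. *CRTAC1*, a marker of articular chondrocytes, missed the filter because 17.2% of cyAC cells held it, at 327 CPM against 0.141 in the organoids.

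Growth cartilage genes were called in both directions. Of 14 listed genes 11 passed the filter. *UCMA*, *MATN4* and *EPYC* were higher in the organoids, *SNORC*, *SCRG1*, *PTH1R*, *S100A1* and *CRISPLD1* were higher in cyAC, and *MATN3*, *CNMD* and *FGFR3* were within 2-fold. *UCMA*, *MATN4* and *EPYC* were under 50 CPM in cyAC and could pass only by being higher in the organoids. *PTH1R* and *CRISPLD1* were under 50 CPM in the organoids and could pass only by being higher in cyAC. Of the 6 at 50 CPM or more in both samples, *S100A1*, *SCRG1* and *SNORC* were higher in cyAC and none in the organoids. *CRISPLD1*, a secreted protein, had 14.9 and 730.0 CPM and *S100A1*, a calcium-binding protein, 494 and 1206, while *SNORC*, a chondrocyte membrane proteoglycan, was close to the threshold at 2.04-fold and fell below it in 4 of the 13 alternatives. Of 14 listed genes of hypertrophy and mineralization 9 missed the filter. *COL10A1*, the collagen of hypertrophic cartilage, was listed at 0 in the organoids and had 8.79 CPM from 4.06% of the cells in cyAC. *IHH* and *SP7* had no read in either sample, *MMP13*, a collagenase of hypertrophic cells, had 9.02 CPM in the organoids and 0.0846 in cyAC, and *ALPL*, the alkaline phosphatase of mineralizing cells, had 3.15 and 0.0846. Of the 5 that passed, *SPP1*, which encodes osteopontin, and *ANKH*, a pyrophosphate transporter, were within 2-fold at 603 and 464 CPM and 667 and 583 CPM, *ENPP1*, which makes the mineralization inhibitor pyrophosphate, was higher in the organoids at 236 against 104 CPM (within 2-fold when centred) and *PTH1R*, the receptor of parathyroid hormone-related protein, was higher in cyAC at 77.9 against 27.4 CPM, while *MEF2C* at 2.05-fold toward cyAC fell below 2-fold in 8 of the 13 alternatives.

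BMP2, TGF-β1 and GDF5 were in the culture and digestion media of the organoids and not in the digestion medium of cyAC, and the part of these factors in the levels of their pathway genes was not tested. Of 16 listed targets and inhibitors of BMP and TGF-β signaling 12 passed the filter and 6 of these were higher in cyAC. Of the 10 at 50 CPM or more in both samples, 5 were higher in cyAC, 1 in the organoids and 4 were within 2-fold. The BMP target genes *ID1*, *ID2* and *ID3*, inhibitors of helix-loop-helix factors, were higher in cyAC, with 81.5 and 726 CPM for *ID2*, 67.3 and 184 for *ID1* (below 2-fold in the thinned cells and in the larger set of organoid cells) and 12.7 and 83.5 for *ID3* (log2 ratio -2.63, and -1.99 in the larger set). The feedback inhibitors *SMAD7* and *SKIL* were higher in cyAC by 3.28- and 2.79-fold. *BAMBI*, a decoy receptor of the pathway, was higher in the organoids at 140.0 against 43.8 CPM. Among ligands and receptors, 12 of 19 listed genes passed, with 6 higher in cyAC, 1 in the organoids and 5 within 2-fold. Of the 6 at 50 CPM or more in both samples, *INHBA* and *TGFBR2* were higher in cyAC and 4 were within 2-fold. The other members higher in cyAC were under 50 CPM in the organoids and could pass only by being higher in cyAC. *BMP2* itself, *INHBA*, which encodes the activin A subunit, and *GDF10* were higher in cyAC at 236, 2475 and 115 CPM against 44.2, 735 and 9.49, as were the receptors *TGFBR1*, *TGFBR2* and *TGFBR3* by 2.44-, 2.26- and 4.79-fold (*TGFBR2* within 2-fold in the larger set of organoid cells). *BMP6* was higher in the organoids at 53.9 against 13.4 CPM, but missed the filter by mean CPM per cell and in the larger set.

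The next lists hold binding proteins and antagonists of growth factors. Of 11 listed IGF genes 7 passed the filter, and *IGF2R*, *IGFBP3*, *IGFBP4*, *IGFBP5* and *IGFBP7* were higher in the organoids (*IGFBP7* not when ratios were centred), with *IGFBP4* at 413 against 26.5 CPM and *IGFBP5* at 1278 against 191 CPM. *IGFBP6* was the only member higher in cyAC, and *IGF2*, the fetal ligand, was within 2-fold at 827 and 518 CPM. Of the *IGFBP5* reads of cyAC 33.2% came from 1 cell, without which the level was 128 CPM. *IGFBP3*, *IGFBP4* and *IGFBP6* each passed the filter through 1 sample alone. All 12 WNT antagonists were listed and 3 passed the filter, *SFRP5* and *WIF1* through cyAC alone, so their direction was fixed by the filter. *FRZB*, the antagonist of articular cartilage, had 519.7 and 3297 CPM, *WIF1* 11.8 and 387, and *SFRP5* is given above. The other 9 missed the filter, among them *DKK3* at 29.1 and 87.6 CPM and *SOST*, with no read in the organoids and 34.7 CPM in cyAC.

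Fetal and imprinted genes were mixed. Of 14 listed genes 6 passed the filter, *DLK1*, *MEST* and *IGF2BP2* were higher in the organoids, *PLAGL1* was higher in cyAC (within 2-fold against the larger set of organoid cells) and *IGF2* and *SGCE* were within 2-fold. *DLK1* and *IGF2BP2* were under 50 CPM in cyAC and could pass only by being higher in the organoids. Of the 4 at 50 CPM or more in both samples, 1 was higher on each side and 2 were within 2-fold. *MEST*, an imprinted hydrolase gene, had 628 and 81.6 CPM, and *IGF2BP2*, a fetal RNA-binding protein, 54.2 and 12.3. The fetal RNA-binding genes *LIN28B* and *IGF2BP1* were near 0 in both, at 0.986 and 1.22 CPM in the organoids and without reads in cyAC, against 37.8 and 40.9 CPM in cyiPSC. *PEG3*, an imprinted zinc finger gene, missed the filter with no read in the organoids and 62.1 CPM from 20.3% of the cells in cyAC. It was also at 0.0335 CPM in post-transplant cyiPS-Cart and 0.0265 in cyiPSC, against 26.3 in cyFT, so that every sample of the EGFP line was near 0.

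Of 16 listed acute-phase and inflammatory genes 10 passed the filter, with *SOD2*, *NFKBIA*, *NFKBIZ*, *LIF*, *PTGS2* and *ICAM1* higher in cyAC, *SERPINA1* higher in the organoids and 3 within 2-fold (4, 1 and 3 of the 8 at 50 CPM or more in both). *ICAM1*, a leukocyte adhesion molecule, had 4.04 and 213 CPM, *SOD2*, the mitochondrial superoxide dismutase induced by NF-κB, 55.5 and 740.3, and *PTGS2*, the inducible cyclooxygenase, 51.6 and 317. *CCL2* and *IL6* missed the filter, and 62.3% and 62.0% of their cyAC reads came from 1 cell each. Of 19 listed glucocorticoid and clock genes 10 passed, with *PER1*, *PER2*, *BHLHE40*, *NR1D1* and *CRY2* higher in cyAC (*PER1*, *PER2* and *CRY2* passed through cyAC alone), *SGK1* higher in the organoids and 4 within 2-fold (*CRY2* also with 10 CPM added, and *NR1D1* among cells with *COL2A1* and without *COL1A1*). *PER1*, a clock gene that glucocorticoids induce, had 9.11 and 65.6 CPM, and *BHLHE40*, a clock repressor, 119.6 and 612. Of 18 listed immediate early genes 14 passed and 9 were within 2-fold, *FOS* and *JUN* among them at 623 and 754 CPM and 242 and 247 CPM, while *FOSB* (4.41 and 129.9 CPM), *EGR1*, *ZFP36* and *MYC* were higher in cyAC and *KLF6* in the organoids. *MT1E*, a metal-binding metallothionein, had 131 and 1060.2 CPM, and *SLC39A8*, a zinc importer, 5.96 and 102. Of 7 listed heat shock genes 6 passed, with *BAG3* and the small heat shock protein *CRYAB* higher in cyAC by 2.57- and 33.6-fold and 4 within 2-fold. Digestion medium differed between the samples, and its part in these levels was not tested.

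Metabolic genes showed no common direction. Of 13 listed glycolysis genes 11 passed the filter, with *SLC2A1*, *SLC2A3* and *LDHA* higher in the organoids, *HK1*, *PFKP* and *ALDOC* higher in cyAC and 5 within 2-fold. *SLC2A1*, the basal glucose transporter, had 850.1 and 312 CPM, and *LDHA*, a lactate dehydrogenase subunit, 998 and 461, which fell within 2-fold when ratios were centred and when genes over 1% of reads were left out of the totals. Of 15 listed hypoxia genes 8 passed, and the 5 of these at 50 CPM or more in both samples were all within 2-fold. *HIF1A* was within 2-fold at 976 and 834 CPM, whereas *EPAS1*, which encodes HIF-2α, was higher in cyAC at 78.8 against 7.14 CPM, as was *DDIT4*, an inhibitor of mTOR signaling, at 52.3 against 16.9. *ERO1A*, an oxidase of the endoplasmic reticulum, was higher in the organoids by 2.12-fold, but within 2-fold in 5 of the 13 alternatives, TMM scaling among them. *ATP1B1*, a sodium pump subunit, was higher in the organoids at 1163 against 120.2 CPM. Of 16 listed genes of endoplasmic reticulum stress and amino acid response 12 passed and 7 were within 2-fold. *ASNS* and *PHGDH*, which make asparagine and serine, and *HSPA5*, the chaperone BiP, were higher in the organoids by 4.76-, 2.44- and 2.79-fold (*PHGDH* within 2-fold when centred), and *CHAC1* and *SESN2*, which the integrated stress response induces, were higher in cyAC by 6.85- and 2.63-fold. Mitochondrial genes took 5.51% of the organoid reads and 3.60% of the cyAC reads, and of these 13 genes *COX1* and *ATP6* were higher in the organoids by 4.57- and 2.44-fold, *ND3* in cyAC by 2.12-fold, and 10 were within 2-fold. Of 53 ribosomal protein genes 50 were within 2-fold, *RPLP0* was higher in the organoids (not when ratios were centred) and *RPL38* and *RPS29* were higher in cyAC.

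**Figure D5:**
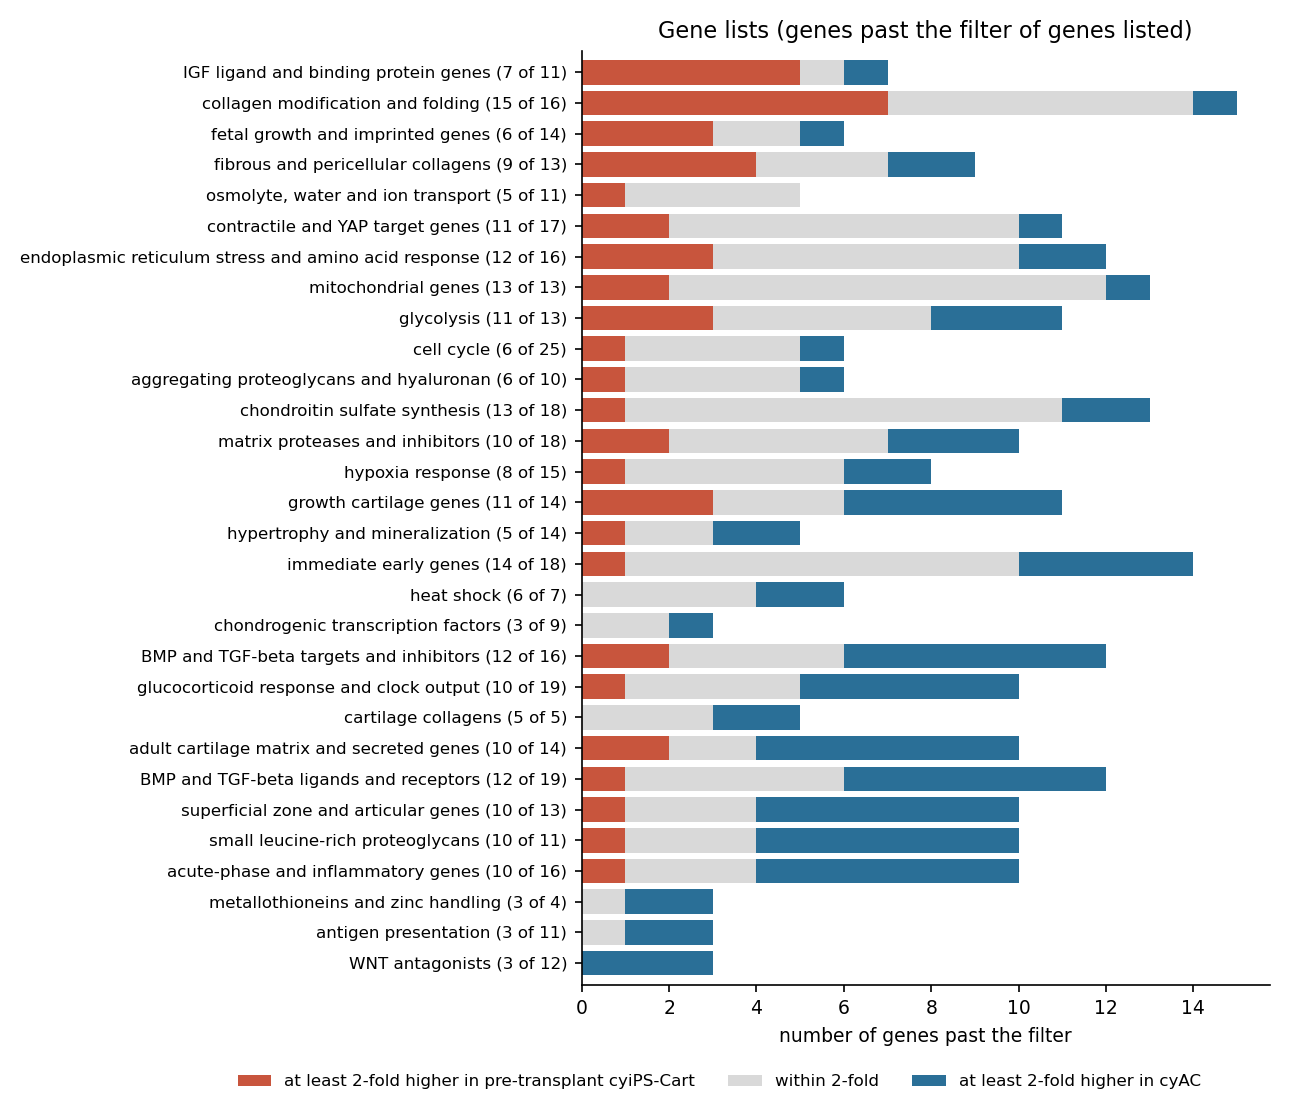
Number of genes past the filter (x axis) in each gene list that were at least 2-fold higher in pre-transplant cyiPS-Cart (red), within 2-fold (grey) or at least 2-fold higher in cyAC (blue), with the genes past the filter and the genes listed in brackets. Collagen modification (7 against 1) and IGF genes (5 against 1) lie at the organoid end and small leucine-rich proteoglycans (1 against 6) at the cyAC end, beside 15.7% and 11.3% of all genes past the filter, and counts include genes that passed through 1 sample alone.

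Of the matrix-degrading enzymes and inhibitors, all 18 were listed and 10 passed the filter, of which *MMP2*, *MMP14*, *TIMP2*, *TIMP3* and *HTRA1* were within 2-fold. *CTSK*, the collagen-cleaving cathepsin K, had 21.3 and 219 CPM, *MMP3*, the protease stromelysin, 427 and 1441, and *TIMP1*, a protease inhibitor, 254 and 560.2, all higher in cyAC. *TIMP4* and *CTSB* were higher in the organoids, at 53.0 and 315 against 4.82 and 87.7 CPM. Of 25 listed cell cycle genes 19 missed the filter, which genes read in under 25% of cells cannot pass. The summed level of all 25 was 1627 CPM in the organoids and 1117 in cyAC. The median log2 ratio over all 25 was 2.26, against 0 over all 14020 genes, most of which also missed the filter. Over the 6 past the filter the median was 0.39, against 0.28 over all genes past it. Of these 6, 1 was higher in each sample and 4 were within 2-fold. *MKI67*, a marker of cycling cells, had 18.7 and 0.507 CPM and was held by 24.7% and 1.25% of the cells (10.7% and 0.694% after thinning). *TOP2A*, a topoisomerase of dividing cells, had 31.2 and 0.846 CPM, with 47.2% of its organoid reads in 1 cell. *CCND1*, the G1 cyclin, was higher in the organoids at 85.4 against 11.8 CPM, but missed the filter among cells with *COL2A1* and without *COL1A1*, and *HMGB2*, a chromatin protein, was higher in cyAC at 92.8 against 35.4 CPM.

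The remaining lists had few genes past the filter or a share of called genes near the 27% over all genes. Of 9 chondrogenic transcription factors 3 passed the filter, and *SOX5*, a partner of SOX9, was higher in cyAC at 158 against 51.5 CPM. Of 17 contractile and YAP target genes 11 passed, with *TAGLN*, an actin-binding protein of contractile cells, higher in the organoids at 367 against 97.9 CPM, *AMOTL2* also higher there, and *CCN2*, a matricellular growth factor, higher in cyAC at 1085 against 311 CPM. Of 11 antigen presentation genes 3 passed, and *B2M*, the light chain of MHC class I, was higher in cyAC at 1000.0 against 310.4 CPM, with 2874 CPM after transplantation, as was the interferon-induced *IFI6* at 92.3 against 33.5 CPM. Of 31 HOX and limb identity genes *PRRX1* alone passed, within 2-fold at 52.1 and 29.8 CPM, and no direction is read from the others at their low levels.

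Markers of most other cell types were rare in both samples. At least 3 of 9 pan-immune and macrophage genes were held by 0 organoid cells and 1 cyAC cell, with summed levels of 4.37 and 33.7 CPM, and *PTPRC*, *CSF1R* and *LYZ* had no read in the organoids. At least 3 of 7 endothelial genes were held by 0 and 1 cells, and at least 3 of 6 osteoblast genes by none. At least 3 of 6 mural genes were held by 20 organoid cells and 1 cyAC cell, at 151 and 39.2 CPM. Neural genes had 57.0 CPM in the organoids, with 3 cells holding at least 3 of 7, and 1.27 in cyAC, and at least 3 of 6 pluripotency genes were held by 1 organoid cell and no cyAC cell. At least 3 of 6 T cell genes were held by 5 cells of each sample, of 4 epithelial genes by 3 organoid cells and no cyAC cell, of 4 adipocyte genes by no organoid cell and 2 cyAC cells, and of 4 osteoclast or 4 skeletal muscle genes by none. *LPL*, a lipase among the adipocyte markers, was higher in cyAC at 114 against 10.8 CPM, in 42.5% and 7.19% of the cells. Synovial fibroblast genes, which chondrocytes share in part, were an exception. At least 3 of 8 were held by 237 organoid cells and 136 cyAC cells at summed levels of 1595 and 1339 CPM, with *DPT* higher in the organoids, *PDPN* and *THY1* higher in cyAC, *FAP* within 2-fold and *PI16*, *MFAP5*, *CD34* and *CXCL12* under the filter. The part of such cells in the differences above was not tested.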

How the data were processed

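The authors made the deposited counts from 3 libraries of single-cell RNA-seq on a microwell platform, together with 3 hashtag libraries, which were not used here. Cutadapt 3.4, Bowtie2 2.4.2 and R 3.6.3 are named in the submitters' processing notes. The study's methods give a cynomolgus monkey reference, whereas the notes name a human build, so no coordinates are printed. The deposited counts are whole numbers per gene and cell after the authors' filters and their correction for diffused reads, and are taken as reads, not molecules. That correction left 0 in place of low counts of highly expressed genes, and the lowest non-zero count of *UCMA* was 15 in the organoids and 1 in cyAC, of *PRG4* 22 and 1. The authors drew 320 cells per condition for the matrix used, and the prefix of each cell gave its condition.

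Counts were summed over the 320 cells of each condition and divided by the total (python 3.11.15, pandas 2.3.3, scipy 1.17.1), and edgeR 4.0.16 gave the TMM factors. All columns of cells were mapped. With 1 sample per condition no count test was made, and the authors' marker test across cells was not repeated. Scripts were tested on simulated data. Scrublet in scanpy 1.11.5 marked 22 organoid cells and 1 cyAC cell as doublets, which were kept. The text names the 15 genes at either end of the ranking by log2 ratio, leaving out the transgene and genes without a symbol, and the members of the gene lists. The members and lists were chosen with earlier results of these data known. A RefSeq table of gene names held 94.9% of the 14020 symbols. The alternatives changed the scaling, the constant added, the filters and the cells used.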

Additional observations from a re-analysis of the deposited data

How the results depend on the processing

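No paired analysis was possible because each condition is 1 sample. Of 159 named genes past 2-fold, none changed direction under 13 alternatives and 0 to 9 fell within 2-fold under each. These genes were called from the same reads, and the alternatives largely reuse the same cells. The larger set of organoid cells, for example, holds 300 of those used. An unchanged direction is therefore not independent support. The number of genes higher in the organoids was 309 when ratios were centred on their median, 1729 with no filter and 167 with a filter at 200 CPM and 50% of cells, and the number higher in cyAC was 1594 with no filter and 149 with the stricter filter. The log2 ratio of *UCMA* was 7.43 without genes over 1% of reads, 7.26 centred, 7.39 by mean CPM per cell, 7.28 in thinned cells, 7.15 with 10 CPM added and 7.79 without the cell with most of its reads, an alternative chosen after seeing the data. With the larger set of organoid cells the log2 ratio of *FGFBP2* moved from -6.93 to -6.14, of *SFRP5* from -6.94 to -6.35, of *CTHRC1* from -7.59 to -7.00 and of *CP* from -4.93 to -4.33, and with the stricter filter on cells that of *CHI3L1* from 1.62 to 2.35. The log2 ratio of *PRG4* was -3.32 with TMM factors, -3.18 without mitochondrial genes in the totals, -3.33 without genes over 1% of reads, -3.49 centred, -3.16 by mean CPM per cell, -3.06 in thinned cells, -2.85 with the larger set of 3527 organoid cells, -2.61 among cells with *COL2A1* and without *COL1A1* reads and -3.11 without doublets. At a minimum of 10 reads, 3.44% of cyAC cells held *UCMA* and 58.1% held *PRG4* (92.0% held *PRG4* after thinning). Apart from the filters, the scaling and the cells used, which set these values, the cause of a change was not tested. With no second sample of either condition, the spread between cultures or animals is unknown, and the intervals cover counting error only.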
